A study of Mus musculus with 2 samples.

Results

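*Penk* encodes proenkephalin, the precursor of the enkephalin opioid peptides, and its transcript was followed here through CD8+ T cells sorted from B16 F0 melanoma tumors of lean and obese mice. The gene was chosen by its measured level in these cells, so its levels are given as a description, without a test. The gene (ENSMUSG00000045573) lies on the minus strand at chr4:4133531-4138819 of the GRCm38 (mm10) build, where the annotation lists 2 transcripts of 2 and 3 exons. The series holds 1 library of tumor-infiltrating lymphocytes (TIL) from lean and 1 from obese male C57Bl/6J mice of 16 weeks, the obese mice fed a western diet and the lean mice normal chow. Both groups carried the same transplanted tumor line, a mouse melanoma, and TIL were enriched on CD8 beads and sorted on CD8 before droplet capture. The number of mice pooled into a library is not given in the sources used here. *Penk* was found in 123 of 2456 lean and 132 of 2289 obese cells that passed the filters on mitochondrial share and depth. Cells with at least 2 *Penk* unique molecular identifiers (UMIs, each marking 1 captured RNA molecule) are called Penk-positive: 77 lean and 81 obese cells. Cells with no *Penk* UMI are called Penk-negative, 2333 lean and 2157 obese cells, and the 46 lean and 51 obese cells with 1 UMI were put in neither class.

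Proenkephalin is cut by proprotein convertases and trimmed by carboxypeptidases into Met- and Leu-enkephalin. These peptides act on the delta and mu opioid receptors and are degraded outside the cell by peptidases such as neprilysin and aminopeptidase N. The gene is best known from neurons and the adrenal medulla, but T cells also transcribe it after activation.

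The libraries held 27815785 lean and 28705830 obese UMIs, with a median of 7958 and 9103 UMIs per cell. With 1 library per group there are no replicates, so no test between lean and obese mice was possible. Every 95% interval below covers counting error only, not differences between mice. Intervals of levels and of their ratios treat each UMI as independent, so they also leave out the spread between cells of a library. The sort label was checked on its markers: a *Cd8a* or *Cd8b1* UMI was seen in 76 of 77 lean and 81 of 81 obese Penk-positive cells. Of the cell barcodes, 2 occurred among the kept cells of both libraries, and these cells held no *Penk* UMI.

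Over all kept cells the *Penk* level was higher in the obese library, while the share of cells with the transcript differed less. The lean library held 783 *Penk* UMIs, or 28.1 CPM (UMIs of the gene per 1000000 UMIs, interval 26.2 to 30.2), and the obese library held 1398, or 48.7 CPM (46.2 to 51.3). The obese over lean ratio was 0.79 on the log2 scale (0.66 to 0.92). At least 1 *Penk* UMI was seen in 5.01% of lean cells (4.18 to 5.95) and 5.77% of obese cells (4.85 to 6.80). After each cell was thinned to 2000 UMIs, which leaves out 126 lean and 112 obese shallower cells, the shares were 2.15% (50 of 2330 cells) and 2.20% (48 of 2177 cells). The thinned shares differed by 0.059 percentage points, with a Newcombe interval from -0.80 to 0.93 points, so no difference in share was detectable at this depth. Thinned to 5000 UMIs, the shares were 3.01% lean and 4.04% obese, a difference of 1.03 points (-0.15 to 2.23).

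The obese library differed in its cells with the most *Penk*. Among Penk-positive cells the median was 5 UMIs per lean cell (quartiles 3 and 9) and 6 per obese cell (quartiles 3 and 16). The highest lean cell held 50 *Penk* UMIs of 14826 in all, and the highest obese cell 181 of 17904, or 10110 CPM. The next obese cells held 128, 127, 93, 82 and 51 *Penk* UMIs, all above the highest kept lean cell. The 10 highest cells carried 47.0% of lean and 57.1% of obese *Penk* UMIs. Cells with 20 or more UMIs numbered 9 in the lean and 16 in the obese library. Within Penk-positive cells the level was 443 CPM (411 to 476) lean and 680 CPM (644 to 717) obese, a log2 ratio of 0.62 (0.49 to 0.75). Without the 10 highest cells of each library that ratio was 0.30 (0.11 to 0.50), and over all kept cells it was 0.49 (0.30 to 0.67). Left-out cells of 50000 UMIs or more held 53.5 CPM of *Penk* lean and 49.7 CPM obese, with a lean cell of 79 and an obese cell of 56 *Penk* UMIs at most. Cells with 7.5% or more mitochondrial UMIs held 11.9 and 66.3 CPM. With all deposited cells included the ratio within Penk-positive cells was 0.087 (-0.023 to 0.20).

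**Figure D1:**
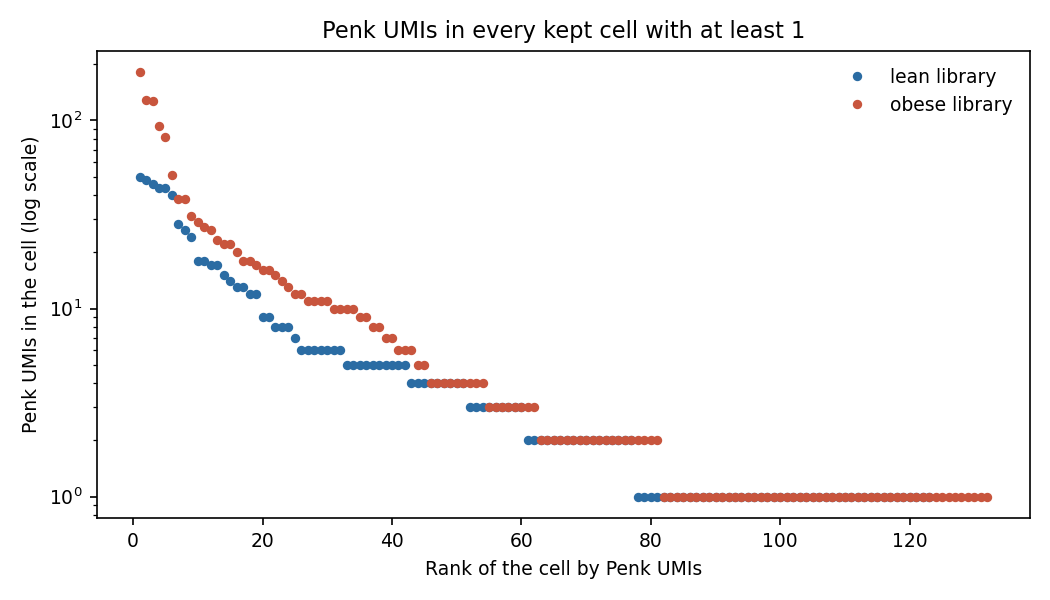
Penk UMIs in each kept cell with at least 1 (vertical axis, log scale) against the rank of the cell within its library (horizontal axis), with lean cells in blue and obese cells in red, drawn over the lean ones where they coincide. The 5 highest obese cells hold 82 to 181 UMIs and lie above the highest lean cell at 50, while the numbers of cells, 123 and 132, are close.

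Penk-positive cells were deeply sequenced cells. Their median total was 21067 lean and 22466 obese UMIs, against 7743 and 8765 in Penk-negative cells, and cells with 1 UMI had medians of 17129 and 21352. The median mitochondrial share was 1.91% in lean Penk-positive and 2.12% in lean Penk-negative cells, and 2.55% and 2.64% in obese ones. Since a deep cell shows a rare transcript more readily, each Penk-positive cell is compared below with a Penk-negative cell of like total UMIs.

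Most *Penk* UMIs lay in the clusters of effector-like and proliferating-like cells, while the highest lean level per cluster, by a small margin, was that of an unnamed cluster of shallow cells. Both libraries were clustered together with *Penk* left out of the variable genes, which gave 6 clusters, named from markers. The effector-like cluster, led by *Gzmd*, *Cd81* and *Gzme*, held 51.9% of lean and 63.6% of obese *Penk* UMIs. Its *Penk* level was 48.8 CPM (44.2 to 53.8) over 615 lean cells and 191 CPM (179 to 204) over 301 obese cells, a log2 ratio of 1.97 (1.80 to 2.14). Penk-positive cells made up 37 of these lean and 40 of these obese cells. After thinning, 22 of 615 lean cells of the cluster held a *Penk* UMI, or 3.58% (2.26 to 5.37). In the obese library 29 of 301 cells did, or 9.63% (6.55 to 13.5). These intervals take each cell as independent and are no test between lean and obese mice. Without the 5 highest cells of each library, a cutoff chosen after seeing the data, the log2 ratio in the cluster was 1.23 (1.02 to 1.45). The levels themselves were 24.0 CPM lean and 71.9 CPM obese without the 10 highest cells, and 23.0 and 84.6 CPM in the effector-like cluster of a finer clustering. Within this cluster the 6 granzyme c-to-n genes, among them its leading genes *Gzmd* and *Gzme*, summed to 1089 CPM (1067 to 1112) in lean and 291 CPM (276 to 307) in obese cells. Cluster sizes are not compared, yet the level and share of *Penk* in a cluster depend on which cells it holds. The numbers of Penk-positive cells, 37 and 40, were close, while the cluster held 615 lean and 301 obese cells. How far this shaped the ratio was not tested.

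The proliferating-like cluster, led by *Pclaf*, *Birc5* and *Nusap1*, held 41.0% of lean and 33.6% of obese *Penk* UMIs. Its *Penk* level was 28.3 CPM (25.3 to 31.6) lean and 33.2 CPM (30.2 to 36.3) obese, a log2 ratio of 0.23 (0.021 to 0.44). Penk-positive cells numbered 30 lean and 36 obese. In the interferon-stimulated-like cluster, led by *Gzma* and *Ifit3b*, the level was 2.69 CPM (1.08 to 5.54) and 5.88 CPM (3.97 to 8.40). The naive- or memory-like cluster, led by *Tmem108*, held 1 *Penk* UMI in each library, among 576 lean and 430 obese cells. Its level of 0.22 and 0.28 CPM is taken here as a background, with a median depth of 7467 and 7859 UMIs per cell. Free RNA itself was not measured, and shallower cells may have another background. The effector-like and proliferating-like clusters lay above this level in both libraries, whereas in the lean library the intervals of the interferon-stimulated-like and the naive- or memory-like cluster (0.0056 to 1.23) overlapped. The unnamed cluster of shallow cells was led by the haemoglobin genes *Hbb-bs* and *Hba-a1*, and 2 of 11 effector-like markers were over 1.5-fold in it. The 4 haemoglobin genes had 0 UMIs in lean and 2 in obese Penk-positive cells matched below. In this cluster, with a median of 2318 lean and 2400 obese UMIs, the *Penk* level was 52.1 CPM (38.3 to 69.3) lean and 9.0 CPM (3.88 to 17.7) obese. That difference rests on 47 and 8 *Penk* UMIs, from 9 and 1 Penk-positive cells. After thinning, which leaves 186 lean and 144 obese cells of this cluster, 5.38% (2.61 to 9.66) and 2.08% (0.43 to 5.97) held a *Penk* UMI, intervals that overlapped. The dendritic-like cluster of 10 lean and 21 obese cells held 1 and 0 *Penk* UMIs.

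**Figure D2:**
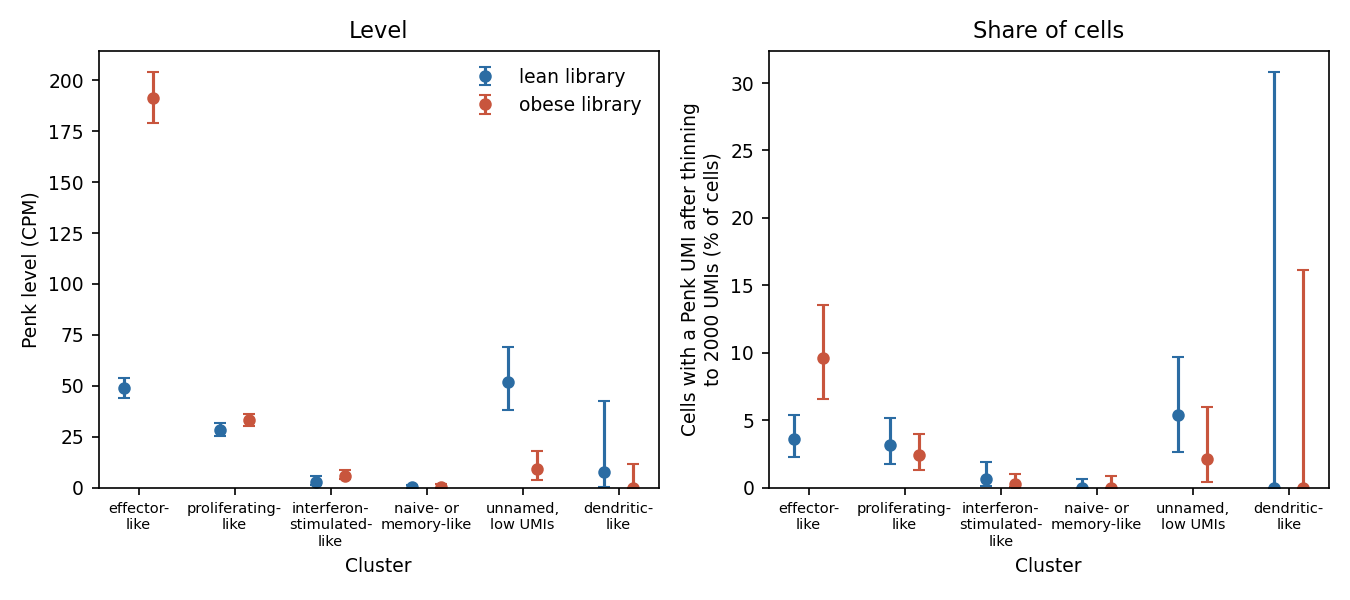
Penk by cluster in the lean (blue) and obese (red) library: CPM of summed UMIs (left) and percent of cells with a Penk UMI after thinning to 2000 UMIs (right), with 95% counting intervals. The effector-like cluster stands at 48.8 CPM lean and 191 CPM obese, the unnamed cluster at 52.1 and 9.0 CPM, and the naive- or memory-like cluster lies near 0 in both libraries.

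Genes that differ between Penk-positive cells and depth-matched Penk-negative cells were then listed in each library. All 77 lean and 81 obese Penk-positive cells found a match, with totals at most 0.680% and 0.524% apart. A gene was called where the ratio of CPM was at least 2-fold in the same direction in both libraries, among 2503 genes with at least 50 CPM in 1 or both classes of each library, so that a gene could pass through the class where it is higher. By this rule 16 genes were called higher (0.639% of those tested) and 2 lower (0.0799%). These are differences between cells of 1 library each, and cells are not replicates of a mouse, so no p-value is given. In the lean library alone 21 genes were 2-fold higher and 6 lower, and in the obese library 36 and 11. The median log2 ratio over the genes tested was 0.014 lean and 0.041 obese. The 2 classes also fell differently among clusters. In the lean library, 37 Penk-positive and 18 matched cells were effector-like, and 30 and 42 were proliferating-like. In the obese library the numbers were 40 and 10, and 36 and 54. Matching was therefore repeated within clusters, and that ratio is given below for the leading genes and for some others. A gene given without it may also have moved.

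The surface proteins *Cd70* and *Cd81* headed the list. *Cd70*, the ligand of the costimulatory receptor CD27, was at 73.9 CPM (61.4 to 88.2) in lean Penk-positive and 10.8 CPM (6.42 to 17.1) in matched cells. In the obese library it was at 71.2 CPM (59.96 to 84.0) and 7.57 CPM (4.24 to 12.5). The log2 ratios were 2.74 (2.05 to 3.57) lean and 3.19 (2.46 to 4.11) obese, and 2.66 and 2.12 within clusters. A *Cd70* UMI was seen in 30 of 77 lean Penk-positive and 11 of 77 matched cells, and in 41 and 5 of 81 obese cells. *Cd81* is a tetraspanin, a membrane protein that organises other surface proteins, and is itself a leading gene of the effector-like cluster. Its level was 154 CPM (136 to 175) in lean Penk-positive against 33.1 CPM (24.9 to 43.1) in matched cells, and 196 CPM (177 to 216) against 19.7 CPM (14.0 to 26.9) in obese cells. The log2 ratios were 2.21 and 3.29, and 2.46 and 1.94 within clusters. *Cd9*, another tetraspanin, was higher by 1.89 (1.38 to 2.47) lean and 2.05 (1.51 to 2.66) obese, and by 2.05 and 1.15 within clusters.

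Further called genes encode receptors and secreted proteins. *Crtam*, a receptor of activated cytotoxic T cells, was at 124 CPM in lean Penk-positive and 39.1 CPM in matched cells. The obese values were 118 and 35.3 CPM, and the log2 ratios were 1.66 (1.25 to 2.09) and 1.73 (1.35 to 2.15), and 1.57 and 1.5 within clusters. *Il1r2*, the decoy receptor for IL-1, had log2 ratios of 1.55 (1.04 to 2.11) and 2.40 (1.75 to 3.17), and 1.35 and 1.02 within clusters. *Spp1*, which encodes the secreted protein osteopontin, was at 274 CPM against 81.2 CPM lean, and 331 CPM against 77.3 CPM obese. A single cell held 25.4% of the lean and 31.3% of the obese *Spp1* UMIs of Penk-positive cells, and within clusters the log2 ratios were 1.51 and 0.69. *Ccl3*, an inflammatory chemokine, was at 2186 CPM against 1024 CPM lean and 1470 CPM against 726 CPM obese, log2 ratios of 1.09 and 1.02, and 0.51 and 1.16 within clusters.

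Some called genes are best known outside T cells. *Nrgn*, neurogranin, a calmodulin-binding protein of neurons, was the most widely seen, in 69 of 77 lean Penk-positive and 57 of 77 matched cells. In the obese library it was found in 75 and 54 of 81 cells, and its log2 ratios were 1.06 (0.91 to 1.22) and 1.44 (1.30 to 1.58). Within clusters they were 0.99 and 0.93. *Nrn1*, neuritin, had log2 ratios of 1.69 (1.37 to 2.03) and 1.07 (0.81 to 1.34), but 1.02 and 0.045 within clusters, so the obese difference was not seen among cells of the same cluster. *Ccdc184*, a coiled-coil protein, was at 55.9 CPM against 13.8 CPM lean and 53.0 CPM against 6.06 CPM obese, and within clusters its log2 ratios were 2.12 and 2.03. The metabolic genes *Slc16a11* (a monocarboxylate transporter family member), *Fars2* (mitochondrial phenylalanyl-tRNA synthetase) and *Ass1* (argininosuccinate synthase) had log2 ratios of 1.13, 1.11 and 1.03 lean and 1.91, 1.22 and 1.28 obese. Within clusters *Slc16a11* had 1.58 and 0.99. *Tent5a*, a poly(A) polymerase, had 1.12 and 1.40, and the interferon-inducible *Ifi211* had 1.02 and 1.16, and 0.94 and 0.48 within clusters. The remaining called gene, *Gadd45b*, a stress-response gene named here after its values were seen, had 1.13 and 1.01. Closest outside the limit were *Vamp5*, with log2 ratios of 0.99 and 1.58 (0.96 and 0.82 within clusters), and *Cdkn2a*, with 1.10 and 0.98. When cells were matched on depth and cluster, 7 of the 16 genes kept a 2-fold difference in both libraries (*Cd70*, *Cd81*, *Ccdc184*, *Cd9*, *Crtam*, *Il1r2* and *Fars2*), and 16 of 16 kept their direction. All 7, and also *Slc16a11*, *Tent5a*, *Ass1* and *Ifi211*, were below 50 CPM in the depth-matched cells of both libraries. They met the floor only through Penk-positive cells, so their place on the list is no independent support. The count of higher genes was 4 when 1 *Penk* UMI was enough to call a cell Penk-positive, all of them among the 16. It was 27 when 10 UMIs were required, and only 8 of these were among the 16.

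**Figure D3:**
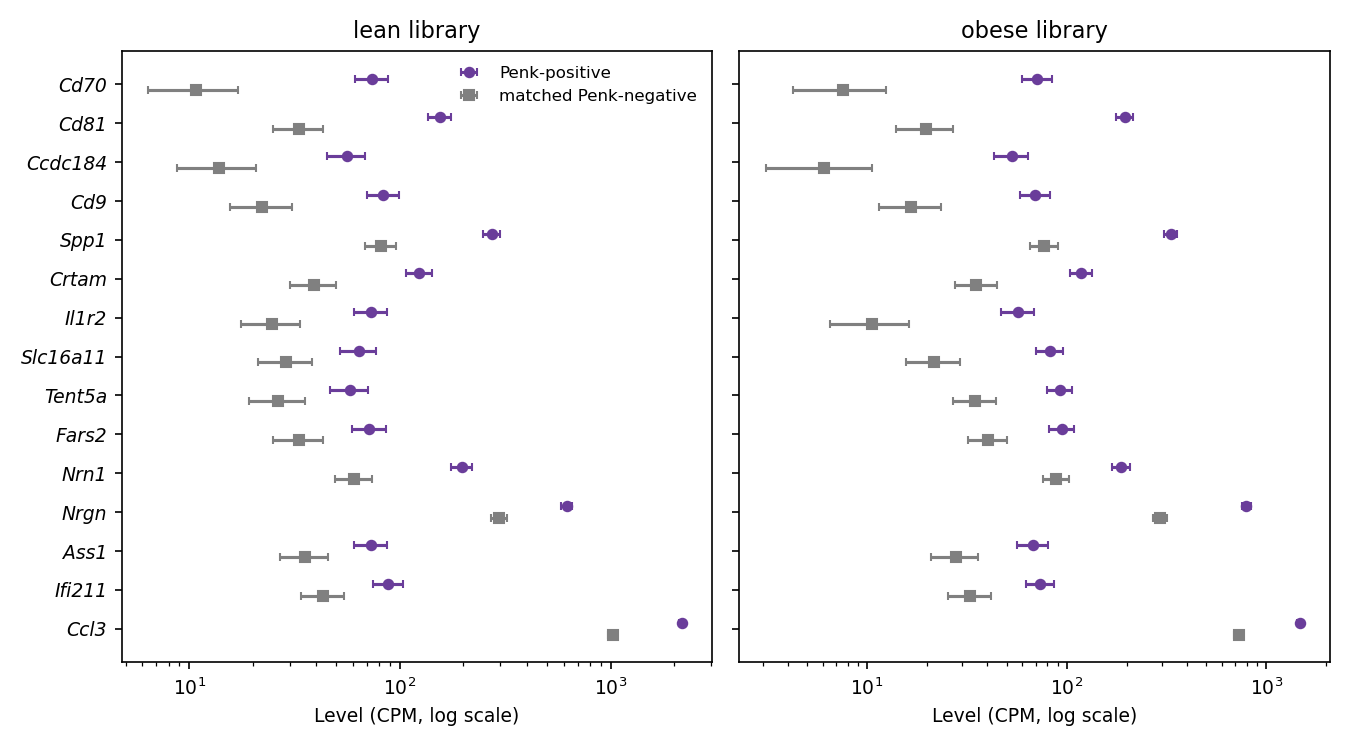
CPM (log scale) of the 15 genes with the highest weaker log2 ratio, in Penk-positive cells (violet circles) and depth-matched Penk-negative cells (grey squares) of the lean (left) and obese (right) library, with 95% counting intervals. Penk-positive cells lie to the right for each gene, from Cd70 at 73.9 against 10.8 CPM lean to Ccl3 at 2186 against 1024 CPM.

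**Figure D4:**
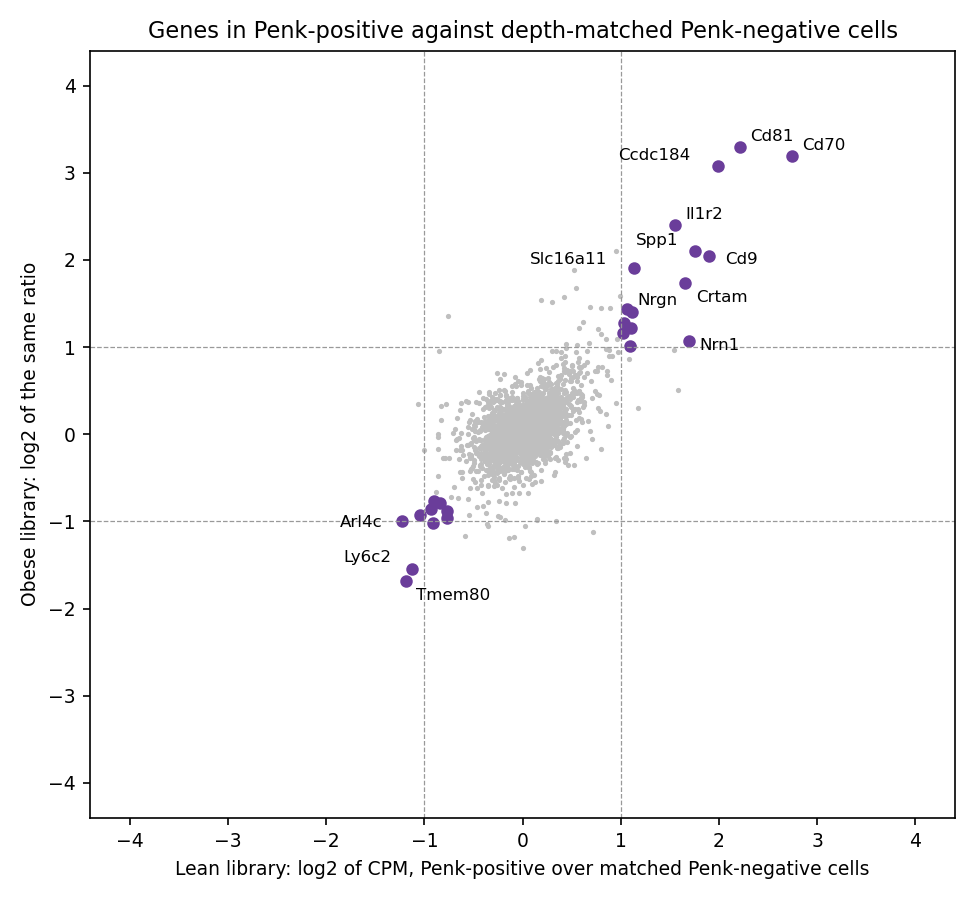
Each grey point is 1 of 2503 genes, placed by its log2 ratio of CPM in Penk-positive over depth-matched Penk-negative cells of the lean (horizontal) and obese (vertical) library. Dashed lines mark 2-fold differences, and violet points are the 25 genes at the ends, 15 upper and 10 lower, by the weaker of both ratios. The 16 called higher lie at the upper right and the 2 called lower at the lower left.

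Lower calls were few and less stable. *Ly6c2*, which encodes a Ly6C surface antigen, was at 209 CPM (187 to 232) in lean Penk-positive and 456 CPM (424 to 489) in matched cells, and at 161 CPM (144 to 180) and 469 CPM (439 to 500) in obese cells. Its log2 ratios were -1.13 and -1.54, and -0.94 and -1.19 within clusters. *Tmem80*, a transmembrane protein gene, had -1.19 and -1.68, but 60.3% of its lean Penk-positive and 70.5% of its obese matched UMIs came from 1 cell each, and within clusters it had -0.37 and 0.43. The other 8 genes at this end were *Arl4c*, *Emb*, *Ifi206*, *Txk*, *Gzmk*, *Vps37b*, *Zfp36l2* and *Grap2*. Among them *Gzmk*, a granzyme of memory-like CD8+ T cells, was at 45.7 CPM against 81.8 CPM lean and 51.5 CPM against 89.4 CPM obese. *Zfp36l2*, an mRNA decay factor, had log2 ratios of -0.77 and -0.88, and *Txk*, a T cell kinase, had -0.93 and -0.86, and -0.55 and -0.24 within clusters.

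Apart from *Ogfr* and, at a low level, *Pomc*, the other opioid precursor and receptor genes were sparse in these TIL. Of the precursors, *Pdyn* (prodynorphin) had 0 UMIs in each library, which allows at most 0.133 CPM lean and 0.129 CPM obese, and *Pnoc* (pronociceptin) had 1 and 2. *Pomc* (proopiomelanocortin) was at 4.85 CPM lean and 5.40 CPM obese, with UMIs in 125 and 140 cells. In Penk-positive cells *Pomc* was at 9.02 CPM against 7.22 CPM in matched cells lean, and at 7.07 against 5.05 CPM obese, with overlapping intervals of counting error. Of the receptors, *Oprm1* (mu) had 5 lean and 3 obese UMIs, *Oprd1* (delta) and *Oprk1* (kappa) had 0, and *Oprl1* (nociceptin) had 0 and 1. *Ogfr*, the structurally unrelated opioid growth factor receptor, was at 40.2 CPM lean and 42.6 CPM obese.

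Genes that process or degrade enkephalins did not stand out as a group. Of 15 processing genes 5 had at least 10 CPM in 1 class of each library, among them *Furin*, a proprotein convertase, with 0 of 5 at least 2-fold higher in both libraries and 1 lower. A gene could meet this floor through the class where it is higher, here and in the lists below. Of the 6905 genes that meet the same floor, 1.01% were at least 2-fold higher in both libraries and 0.246% lower. Taken by direction alone, 32.8% of them were higher and 27% lower in both, against which the counts for the lists below are to be read. The neuroendocrine convertase *Pcsk2* and the chromogranin genes *Chga* and *Chgb* had 0 to 1 UMIs per library, and *Pcsk1* had 4 and 9. *Furin* was at 25.2 CPM against 7.22 CPM in lean Penk-positive and matched cells, a log2 ratio of 1.76 (0.85 to 2.87), and at 14.1 against 11.6 CPM in obese cells, a ratio of 0.28 (-0.56 to 1.15). *Ctsl*, cathepsin L, a lysosomal protease, was lower, at 3.01 against 16.8 CPM lean and 4.04 against 20.2 CPM obese, with log2 ratios of -2.37 and -2.25. A single matched cell held 67.9% of the lean and 75% of the obese matched *Ctsl* UMIs, and within clusters the ratios were -0.79 and -0.74. Of 7 breakdown genes 3 were measurable, and *Ece1*, an endothelin-converting enzyme, was higher, at 24.6 against 9.02 CPM lean and 14.7 against 4.54 CPM obese. Its log2 ratios were 1.42 (0.57 to 2.41) and 1.64 (0.57 to 2.95), and it met the floor only through Penk-positive cells. The neprilysin gene *Mme* had 0 and 5 UMIs and the aminopeptidase N gene *Anpep* 1 and 4.

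Costimulatory receptor genes summed to a higher level in Penk-positive cells. Of the 7, only 3, *Tnfrsf4*, *Tnfrsf9* and *Tnfrsf18*, had intervals above 0 in both libraries. Summed over 7 genes the level was 1843 CPM (1779 to 1910) against 1094 CPM (1044 to 1145) lean, and 1740 CPM (1683 to 1799) against 927 CPM (885 to 971) obese. Of the 7, 5 were higher and 0 lower in both libraries, where 32.8% of all genes were higher, and none was 2-fold higher in both. *Tnfrsf4*, encoding OX40, was at 373 against 192 CPM lean and 337 against 78.3 CPM obese, log2 ratios of 0.95 and 2.10, and 1.09 and 0.95 within clusters. *Tnfrsf9* was at 661 against 340 CPM and 540 against 253 CPM, and *Tnfrsf18*, encoding GITR, at 393 against 226 CPM and 453 against 166 CPM. The *Tnfrsf18* log2 ratios were 0.80 and 1.45, and 0.86 and 0.75 within clusters. Those of *Tnfrsf9* were 0.96 and 1.09, and 0.94 and 0.57 within clusters. *Cd28* had log2 ratios of 0.23 (-0.05 to 0.51) and -0.33 (-0.54 to -0.12), and -0.10 and -0.15 within clusters. The median of the list was 0.40 lean and 0.21 obese, against -0.00074 and 0.051 over the 6905 genes. Across classes of 0, 1, 2 to 4, 5 to 19 and 20 or more *Penk* UMIs, the summed level was 950, 1327, 1815, 1789 and 2096 CPM lean, and 904, 1185, 1689, 1751 and 1819 CPM obese. These classes were not matched on depth.

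Of 18 cytokine and chemokine genes 12 were measurable, of which 9 were higher and 2 lower in both libraries and 4 were 2-fold higher in both. Of all genes at this floor 32.8%, 27% and 1.01% met the same limits. *Areg* met the floor only through Penk-positive cells in both libraries, and *Csf2* did so in the lean library. The 4 were *Csf2*, *Spp1*, *Areg* and *Ccl3*, and within clusters only *Csf2* of them stayed 2-fold higher in both, with 4.36 and 1.53. *Areg*, from 20 against 9 lean UMIs, had log2 ratios of 1.11 (-0.049 to 2.47) and 1.24 (0.11 to 2.59). Within clusters *Areg* had 0.96 and 2.32, and 1 cell held 40% of its lean Penk-positive UMIs. *Csf2*, encoding GM-CSF, was at 30.7 CPM against 1.20 CPM lean and 76.3 CPM against 23.2 CPM obese, log2 ratios of 4.36 (2.74 to 7.76) and 1.70 (1.23 to 2.22). A single cell held 31.4% of the lean and 29.8% of the obese *Csf2* UMIs of Penk-positive cells, the 2 lean matched UMIs came from 1 cell, and 1 cell held 84.8% of the obese matched UMIs. With 3 matched cells per Penk-positive cell, chosen after seeing the data, the *Csf2* ratios were 3.62 and 2.98. *Xcl1*, a chemokine that attracts dendritic cells, was at 954 against 663 CPM lean and 1319 against 358 CPM obese, log2 ratios of 0.52 and 1.88, and 0.61 and 1.04 within clusters. *Ccl1*, the ligand of CCR8, was at 324 against 223 CPM lean and 728 against 227 CPM obese, with 57.6% and 63.5% of the matched UMIs in 1 cell each. Among members named outside the rule on size, *Ifng* had log2 ratios of 0.59 (0.48 to 0.71) and 0.42 (0.30 to 0.53), and *Il2*, an autocrine growth factor, had -0.91 (-2.08 to 0.13) and -0.86 (-1.77 to -0.04). *Ccl5* had -0.32 and -0.27. The list's median was 0.57 lean and 1.13 obese.

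**Figure D5:**
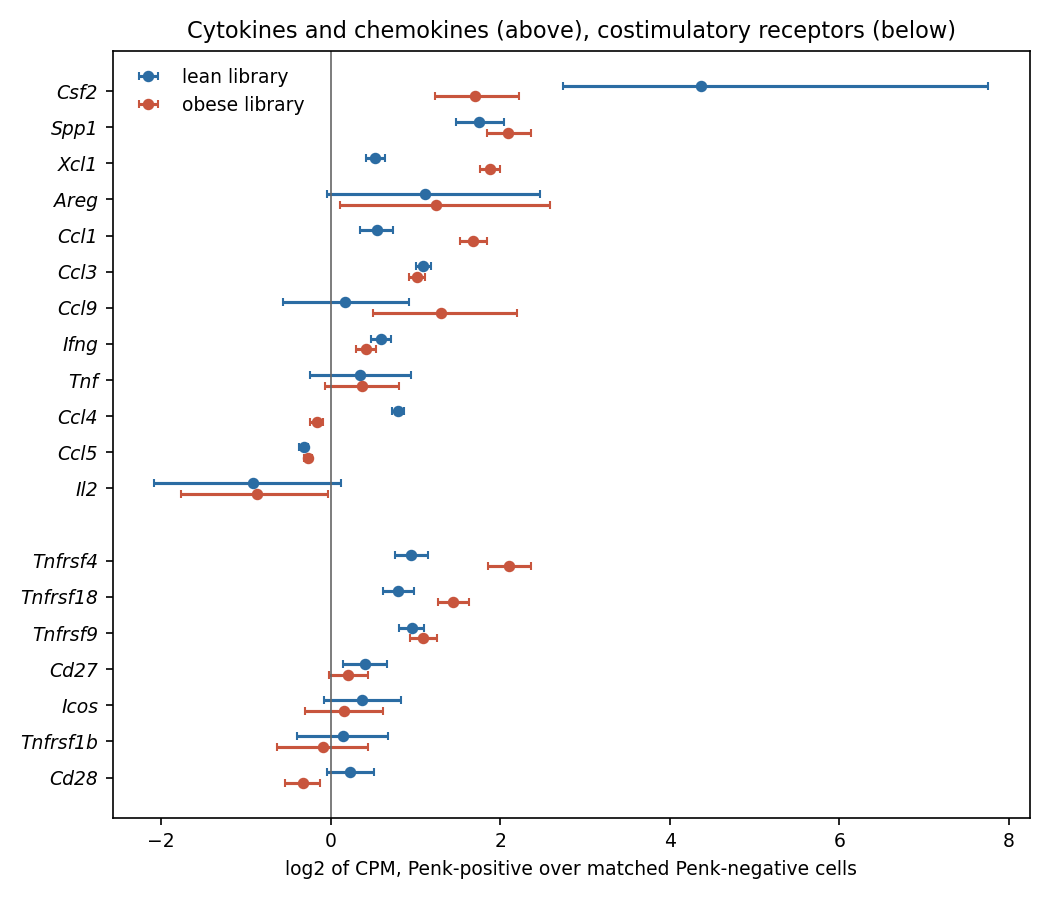
Log2 ratio of CPM in Penk-positive over depth-matched Penk-negative cells for 12 cytokine and chemokine genes (above) and 7 costimulatory receptor genes (below), with lean in blue, obese in red and bars for 95% counting intervals. Csf2, Spp1, Areg and Ccl3 have 2-fold or larger ratios in both libraries, whereas Ccl4, Cd28 and Tnfrsf1b lie on opposite sides of 0.

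The c-to-n granzyme genes, a tandem family of *Gzmb* relatives whose near-identical copies can share reads, went different ways in the libraries. *Gzmc* was at 600 against 200 CPM lean and 215 against 151 CPM obese, log2 ratios of 1.59 and 0.51, but 1.73 and -0.70 within clusters, so its obese direction turned. A single cell held 46.6% of the obese Penk-positive and 50.8% of the obese matched *Gzmc* UMIs. *Gzmd* was at 271 against 16.2 CPM lean and 2.53 against 13.6 CPM obese, and *Gzme* at 224 against 27.7 CPM lean and 11.6 against 46.0 CPM obese. The obese *Gzmd* values came from 5 UMIs in 1 Penk-positive cell and 27 UMIs in 3 matched cells. The obese *Gzme* values came from 23 and 91 UMIs, in 3 cells each. *Gzmf* was at 287 against 484 CPM lean and 71.7 against 27.8 CPM obese, log2 ratios of -0.76 and 1.36, and -0.15 and 0.041 within clusters. A single cell held 58.3% of the lean *Gzmd* and 53.6% of the lean *Gzme* UMIs of Penk-positive cells, so these levels rest on few cells, and within clusters the log2 ratios were 6.35 and -3.44 for *Gzmd* and 5.29 and -3.16 for *Gzme*. Of the other cytotoxic genes, 4 were higher and 4 lower in both, of 10 measurable, where 32.8% and 27% of all genes at this floor were. *Prf1*, perforin, had log2 ratios of 0.52 (0.38 to 0.66) and 0.51 (0.33 to 0.69), and -0.01 and 0.15 within clusters. *Gzma* had -4.25 and -1.05, the lean value from 2 against 47 UMIs, with 74.5% of the matched UMIs in 1 cell and -2.21 within clusters. *Serpinb9*, an inhibitor of granzyme B, had 0.77 and 0.78, and 0.58 and 0.23 within clusters.

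Of 9 genes of checkpoint receptors and related proteins, a list that also holds *Entpd1* and *Tox*, 8 were measurable and none was 2-fold different in both libraries. *Lag3* was at 358 against 283 CPM lean and 279 against 144 CPM obese, and *Pdcd1*, encoding PD-1, at 319 against 257 CPM lean and 230 against 174 CPM obese. Within clusters the log2 ratios of *Lag3* went from 0.34 and 0.95 to 0.051 and 0.30, and those of *Pdcd1* from 0.31 and 0.40 to 0.28 and 0.066. Of smaller differences, chosen after the values were seen, *Havcr2*, encoding Tim3, had -0.26 (-0.54 to 0.01) and 0.16 (-0.17 to 0.50), and *Tox*, a transcription factor of exhausted cells, had -0.34 (-0.65 to -0.02) and 0.13 (-0.10 to 0.37). Among genes of the IL-2 response, *Il2ra*, the high-affinity IL-2 receptor chain, was at 48.7 against 20.4 CPM lean and 51.0 against 19.2 CPM obese, log2 ratios of 1.24 (0.66 to 1.87) and 1.40 (0.86 to 1.99). *Bcl2*, a survival gene, was lower, with -0.93 and -0.91, and -0.57 and -0.48 within clusters.

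Activation transcription factors, the lists with AP-1, Nr4a and Egr members, had 26 of 29 measurable genes, of which 18 were higher (32.8% of all genes at this floor), 3 lower (27%) and 5 opposite in the libraries. The medians were 0.42 lean and 0.33 obese, and 0.36 and 0.22 within clusters. *Egr2*, induced by antigen receptor signals, had log2 ratios of 1.68 (0.62 to 2.996) and 1.27 (0.33 to 2.35), from 18.0 against 5.41 CPM lean and 16.2 against 6.56 CPM obese, and 2.02 and 0.41 within clusters. *Egr2* met the floor of 10 CPM only through Penk-positive cells in both libraries. *Atf3* had 0.87 and 0.57, *Rel* 0.56 and 0.83, *Nr4a2* 0.53 and 0.68, and *Crem* 0.74 and 0.68. Of 13 glycolysis genes 11 were higher in both, against 32.8% of all genes, with medians of 0.18 and 0.25. Within clusters the obese median was -0.06.

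Of 5 measurable naive or memory genes 3 were lower (27% of all genes at this floor) and 1 higher (32.8%) in both libraries, with medians of -0.14 lean and -1.19 obese. *Ccr7*, a lymph node homing receptor, was higher, at 69.7 against 37.9 CPM lean and 93.0 against 47.5 CPM obese, log2 ratios of 0.87 (0.43 to 1.35) and 0.97 (0.60 to 1.34), and 1.29 and 1.07 within clusters. *Klf2* had -0.14 and -1.19, and 0.51 and -0.68 within clusters, and *Il7r* had 0.21 and -1.54, and 0.14 and -0.87 within clusters. Of 10 proliferation genes 7 were lower in both libraries and 0 higher, against 27% and 32.8% of all genes, with medians of -0.47 and -0.21, but 0.08 and 0.13 within clusters, so the direction of the medians turned. *Ccnb1*, encoding the mitotic cyclin B1, was at 30.1 against 69.2 CPM lean and 25.3 against 39.4 CPM obese, log2 ratios of -1.19 and -0.64, and -0.59 and -0.38 within clusters. Of 10 type I interferon genes 6 were measurable, 3 lower in both and 3 opposite. *Bst2*, encoding tetherin, had log2 ratios of -0.35 (-0.59 to -0.11) and -0.78 (-1.04 to -0.53).

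Genes linked to regulatory T cells or TGF-beta included 4 measurable members of 10, with medians of 0.37 and 0.40. *Tgfb1* was at 159 against 123 CPM lean and 159 against 102 CPM obese, and *Ikzf2*, encoding Helios, at 79.3 against 47.5 CPM and 71.2 against 50.5 CPM. *Foxp3*, the regulatory T cell factor, named here after its values were seen, had 25 UMIs in 6 lean Penk-positive cells and 0 in matched cells, and 4 against 2 UMIs in obese cells. *Cd4* had 4 UMIs in 4 lean Penk-positive and 4 UMIs in 1 matched cell.

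Markers of other cells were low in both classes. The 6 CD8 T cell genes summed to 5783 against 5585 CPM lean and 5328 against 5099 CPM obese. Of 5 melanoma genes 4 were at 0 in each class, with 0.505 to 1.20 CPM in all, and the 5 myeloid genes summed to 13.2 against 8.42 CPM lean and 13.1 against 8.08 CPM obese. The 3 CD4 and regulatory T cell genes summed to 19.2 (13.2 to 27.2) against 3.01 CPM (0.98 to 7.02) lean and 3.54 against 3.03 CPM obese. Of 3 natural killer genes, *Ncr1* and *Klrb1c* had 0 to 1 UMIs in each class. *Tyrobp*, also a leading gene of the dendritic-like cluster, had 4 against 46 UMIs lean, in 3 against 5 cells, and 5 against 32 obese, in 4 cells each. The matched cells of each library held 1 dendritic-like cell and the Penk-positive cells 0. Among the 5% of cells with the highest doublet scores were 1 of 77 lean and 4 of 81 obese Penk-positive cells, against 103 of 2333 and 82 of 2157 Penk-negative cells. Among cells of 15000 UMIs or more the numbers were 1 of 52 and 3 of 60 Penk-positive cells, against 43 of 494 and 38 of 526 Penk-negative cells. In CD8 cells without other lineage UMIs, 11 genes were called higher in both libraries, and 10 of these were among the 16 called above. Without the cells of the 5% highest doublet scores, 12 genes were called higher, all of them among the 16. The lower calls numbered 3 and 2, with 2 and 1 of them among the 2 called above. Why the calls shifted was not tested.

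The genes whose levels most resembled *Penk* across cells were found by Pearson r of log-scaled values over 2456 lean and 2289 obese cells, among 8434 genes seen in at least 5% of cells. Cells of a library differed in depth and were not matched on it here, so these are descriptions. In order of the lower r they were *Tnfrsf4* (0.29 lean and 0.30 obese), *Atp2b2*, *Cd70* (0.27 and 0.31), *Ccl1* (0.27 and 0.36), *Ccdc184*, *Nrgn*, *Tnfrsf9*, *Il1r2*, *Vamp5* and *Slc16a11*. *Atp2b2*, a plasma membrane calcium pump, was at 44.5 against 13.2 CPM lean and 57.1 against 10.1 CPM obese. Of these 10 genes, 5 were also among the 15 highest by ratio.

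Penk-positive cells carried many T cell receptor beta V segments, counted after the values were seen. A *Trbv* UMI was found in 44 of 77 lean and 47 of 81 obese Penk-positive cells, from 14 and 15 segments, against 15 and 19 in matched cells. The most frequent, *Trbv13-2* lean and *Trbv13-1* obese, was seen in 15 and 12 Penk-positive cells.

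Between lean and obese Penk-positive cells, some of the genes above did not differ beyond counting error and others did. *Cd70*, *Ccdc184*, *Crtam* and *Nrn1* had obese over lean log2 ratios of -0.05 (-0.41 to 0.31), -0.08 (-0.49 to 0.34), -0.07 (-0.34 to 0.21) and -0.08 (-0.30 to 0.14). The intervals of *Cd9*, *Il1r2*, *Ass1* and *Ifi211* also held 0. *Tent5a* was higher in obese Penk-positive cells, by 0.68 (0.32 to 1.05), and by 0.40 in matched cells. Higher too were *Cd81* at 0.34 (0.11 to 0.57), *Nrgn* at 0.36 (0.24 to 0.47) and *Spp1* at 0.27 (0.099 to 0.45). In matched cells these 3 genes had -0.75, -0.018 and -0.071. A single cell held 31.3% of the obese *Spp1* UMIs of Penk-positive cells, a spread that the interval leaves out. *Fars2* had 0.40 (0.062 to 0.75) and *Slc16a11* 0.37 (0.0085 to 0.74), with 0.29 and -0.41 in matched cells. Of the list members, *Csf2* had 1.32 (0.85 to 1.80), *Ccl1* 1.17 (1.03 to 1.31) and *Gzmb* -1.24 (-1.33 to -1.16). In matched cells *Csf2* had 4.27, with 2 lean UMIs, *Ccl1* 0.027 and *Gzmb* -0.71 (-0.80 to -0.62). *Ccl3* was lower, at -0.57 (-0.64 to -0.50), as it was in matched cells at -0.50. These ratios have no replicate check.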

How the data were processed

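CD8+ TIL from 1 lean and 1 obese group of mice were profiled with 10x Genomics 3′ chemistry. Per the labels, the authors used Cell Ranger 6.0.2 with the mm10 build and deposited raw UMI counts per gene and cell, without normalization. Cells with mitochondrial genes under 7.5% of UMIs and totals over 500 and under 50000 were kept. Cells of a group were summed and given as CPM with exact Poisson intervals, ratios with exact conditional binomial intervals, and shares with Clopper-Pearson intervals. All are 95% intervals of counting error only. Those of CPM and ratios leave out the spread between cells. No test was run, because there is 1 library per group.

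Clusters were made with Seurat 5.3.0 in R 4.3.3 (2000 variable genes without *Penk*, *Ifng*, *Prf1*, *Gzmb*, *Pdcd1*, *Lag3*, *Havcr2*, *Cd44* and *Mki67*, 20 principal components, 20 neighbours, resolution 0.14, the lowest giving 6). Each Penk-positive cell was matched to 1 Penk-negative cell of nearest total UMIs, at most 10% apart, with *Penk* left out of totals and 0.5 counts added to each sum for the log2 ratio. The matching and the calling rule were also run on simulated cells. These had genes drawn independently and no clusters, so that run does not cover classes that differ in cluster make-up. Doublets were not removed, since Scrublet (scanpy 1.11.5) scores were used only as an alternative. Ratios that leave out the 10 highest cells and other alternatives are described in the closing section.

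Named genes are the 15 highest and 10 lowest by the weaker of the 2 libraries' log2 ratios, the 10 genes most like *Penk* by r, and up to 6 members of each of 16 lists with at least 10 CPM in 1 class of each library, those with the largest mean difference. The text says where other genes are named. The gene, the lists and the comparisons were chosen with earlier results of these data known. Coordinates are from GENCODE M21 (GRCm38). Python 3.11.15 was used for the remaining steps. One member of the naive or memory list is not reported here.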

Additional observations from a re-analysis of the deposited data

Results flagged for a closer look

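*Penk* in the unnamed shallow cluster was lower in the obese library, by a log2 ratio of -2.53, while the effector-like and proliferating-like clusters had ratios above 0. This rests on 55 *Penk* UMIs in all, and the difference between clusters was not tested.

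Several genes lay on opposite sides of 0 in the lean and obese comparison of Penk-positive with matched cells. The log2 ratios were 4.04 lean and -2.32 obese for *Gzmd*, 3.01 and -1.96 for *Gzme*, -0.76 and 1.36 for *Gzmf*, 0.38 and -0.15 for *Gzmb*, 0.80 and -0.16 for *Ccl4*, and 0.55 and -0.77 for *Isg20*. With 3 matched cells per Penk-positive cell, an alternative chosen after seeing the data, *Gzmd* had 3.41 and -2.43, *Gzmb* had 0.24 and 0.03, and *Ccl4* had 0.44 and 0.40, so *Gzmb* and *Ccl4* lost their opposite directions. The obese *Gzmd* value rests on 1 Penk-positive cell with 5 UMIs of the gene. Within clusters the ratios were 0.16 and -0.15 for *Ccl4*, -0.0053 and -0.52 for *Isg20*, and -0.15 and 0.041 for *Gzmf*. These differences between libraries were not tested.

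*Penk* was also found in cells that the filter on depth left out. Cells of 50000 UMIs or more held 53.5 CPM of *Penk* in the lean library (83 cells) and 49.7 CPM in the obese library (121 cells), with at least 2 UMIs in 20 and 37 of them.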

How the results depend on the processing

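All values here rest on 1 library per group, and their intervals hold counting error only, without differences between mice. Intervals of levels and ratios also leave out the spread between cells, and some alternatives below fall outside them. No paired analysis was possible because each group holds 1 library. No alternative turned the direction of the 4 *Penk* comparisons between libraries. Single members and lists did turn with matching within clusters: *Tmem80* obese from -1.68 to 0.43, *Gzmc* obese from 0.51 to -0.70, *Klf2* lean from -0.14 to 0.51, and the proliferation medians from -0.47 and -0.21 to 0.08 and 0.13. The obese over lean log2 ratio of *Penk* over all kept cells, 0.79, was 0.54 as a mean over cells of each cell's CPM, 0.57 after thinning to 2000 UMIs, 0.61 over all deposited cells, 0.49 without the 10 highest cells of each library and 0.92 in CD8 cells without other lineage UMIs. It was 0.47 without the 5 highest cells and 0.59 with no upper limit on total UMIs, both chosen after seeing the data. Within Penk-positive cells the ratio of 0.62 was 0.43 as a mean over cells, 0.44 after thinning, 0.087 over all deposited cells and 0.30 without the 10 highest. In the effector-like cluster 1.97 was 1.58 without the 10 highest, 1.23 without the 5 highest and 2.16 in CD8 cells without other lineage UMIs. Thinning to 5000 UMIs gave a difference in share of 1.03 points (-0.15 to 2.23). The 16 higher and 2 lower genes became 4 and 1 with at least 1 UMI, 27 and 11 with at least 10 UMIs, 8 and 0 with matching within clusters, 30 and 29 without matching, 34 and 4 with a floor of 20 CPM, and 49 and 14 at 1.5-fold. With 3 matched cells, chosen after seeing the data, they were 17 (10 of them among the 16) and 0. The cause of these shifts was not tested. The other alternatives moved these values less, 5 of 12 for the level over all kept cells, 6 of 10 within Penk-positive cells, 10 of 13 in the effector-like cluster and 6 of 7 for the share.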
